A study of Caenorhabditis elegans with 8 samples.

Results

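The transcripts of Caenorhabditis elegans 1-cell embryos were compared with those of its oocytes. A gene was included when 2 or more of the 4 libraries of these stages gave it 1 RPKM or more, which held for 8173 of the 21774 genes in the deposited table. RPKM scales the reads of a gene to the length of its transcript and to the reads of its library, and so is a level per length. The libraries hold polyadenylated RNA that was fragmented and copied into cDNA with random primers, and each stage has 2 libraries. The study follows the passage from oocyte to embryo, and it also holds 2 libraries each of 2-cell embryos and of sperm.

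All libraries are labelled with strain TX189, which carries OMA-1::GFP, and with a temperature of 24 degrees C. The protocol instead describes oocytes picked by mouth pipette from cut adult N2 hermaphrodites, which are wild type, and 1-cell embryos sorted by their fluorescence in a flow cytometer. Strain and way of collection therefore cannot be told apart from stage. Sperm came from males of a fog-2(q71) background and was activated with Pronase, and the collection of 2-cell embryos is not described. No source states that replicates came from separate cultures, and the p-values therefore cover only how far the libraries of a stage differ.

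The oocyte of the worm is loaded with messenger RNA by the germ line and is transcriptionally silent when it is ovulated. Fertilization completes meiosis, starts the building of the eggshell and sets off the translation, storage or decay of these maternal messages. The zygote runs its first divisions largely on them, before its own genome is switched on. The embryos sorted at the 1-cell stage thus hold what remains of the maternal store together with what the sperm brought in.

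As deposited, the RPKM of single genes rose more often than they fell. In a limma fit of all 8 libraries on log2(RPKM + 1), 2017 of the 8173 genes were called higher in 1-cell embryos (24.7%) and 706 were called lower (8.64%), at an adjusted p under 0.05 and a log2 difference of at least 1. Another 350 genes (4.28%) were kept, which means that the 95% confidence interval of their log2 difference lay wholly between -1 and 1. Without a test, every 1-cell library lay at least 1 log2 unit above every oocyte library for 1892 genes (23.1%) and below for 679 (8.31%), and the libraries did not overlap for 4589 higher (56.1%) and 1851 lower (22.6%). Over all 11935 genes that entered the fit, 2033 were higher (17%) and 707 lower (5.92%). The median log2 difference of all 8173 genes was 0.68. Rescaling moved this median and the balance of calls: it shifted by -0.37 with all libraries at a common RPKM sum (940 higher, 958 lower), by -0.67 with median-of-ratios scaling (518 higher, 1340 lower) and by -0.51 with quantile normalization (553 higher, 846 lower). The share of calls that were higher went from 74.1% as deposited to 49.5%, 27.9% and 39.5% under these scalings.

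The difference between the stages followed the length of the transcript. Across the 7684 genes with an annotated length, the log2 difference fell by 0.66 for each doubling of length (Pearson's r = -0.500 across genes, which are not independent replicates). Of 1503 genes with transcripts up to 800 nucleotides 812 were called higher (54.03%) and 15 lower, with a median log2 difference of 1.54. Of 2220 genes over 2000 nucleotides 169 were called higher and 401 lower (18.1%), with a median of -0.20. Among these long genes the abundant ones were lowest: the 496 with 50 RPKM or more on average had a median of -0.85, and 153 of them were called lower.

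A second fit was therefore made after a smooth trend with transcript length and level had been taken out of each library, and results are given from both fits. With the trend removed the median log2 difference was 0.16, with 418 of 7684 genes called higher (5.44%), 631 called lower (8.21%) and 1102 kept (14.3%). Both fits called 332 genes higher (4.32%) and 457 lower (5.95%), and 0 genes were called in opposite directions by the 2 fits. Calls in both directions differed in how they held up when the scaling changed. Across 6 fits, made of the deposited values, the 3 rescalings and the removal of length or of length and level, 428 genes were called lower in each (5.57%) and 134 were called higher in each (1.74%). Each rescaling or trend removal moved the median log2 difference of all genes down, by between -0.37 and -0.67, so rises lost their calls more easily than falls. A call in all 6 fits is thus a stricter limit for rises, and these 2 counts do not compare how sound the directions are. Median lengths differed as well. The 1567 genes that were called higher as deposited and not with the trend removed had a median length of 808 nucleotides, against 2138 for the 457 genes called lower in both fits.

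All calls but a few rested on having both oocyte libraries. Without oocyte replicate 1, and likewise without oocyte replicate 2, limma called 0 genes higher and 6 lower on the deposited values, while 1997 and 2136 genes were higher, and 784 and 661 lower, at an unadjusted p under 0.05. The 6 genes were the same in both cases: K04C1.5, tsn-1, pygl-1, rga-9, dhs-17 and 2RSSE.2. With the trend removed 0 were higher and 6 or 8 were lower, and eat-17, lip-1 and cct-7 appeared among these. Without 1-cell replicate 1 the counts as deposited were 1182 higher and 444 lower, and without 1-cell replicate 2 they were 1425 and 459. The oocyte columns also differed from the embryo columns in kind: 2.48% and 2.93% of all genes were listed at 0 in oocytes, against 27.02% and 28.6% in 1-cell embryos, and the part of this in the results was not tested. Replicates of the oocyte were also closer to each other, with a median SD of 0.15 on the log2 scale against 0.42 for 1-cell embryos.

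The genes called in both fits had the following transcript properties, given as a description, since the second fit took length and level into account and exon number and untranslated region go with length. The 457 lower genes had a median transcript of 2138 nucleotides, 7 exons and a 3' untranslated region of 350 nucleotides, against 1415 nucleotides, 6 exons and 179 nucleotides for all reported genes. The 332 higher genes had medians of 1719 nucleotides, 6 exons and 148 nucleotides. The levels were close, with medians of 36.9 RPKM for the lower, 32.7 RPKM for the higher and 27.9 RPKM for all genes. Among the members described by function, the named falls were called in all 6 fits, except for those of sel-8, mys-2, sygl-1 and eef-1A.1. Named rises that were called in all 6 fits included those of rab-6.1, atg-13, tin-44, rpac-19, set-17, dnc-2, pgl-2, skr-12, ant-1.3 and ant-1.4, together with those named below as such.

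**Figure D1:**
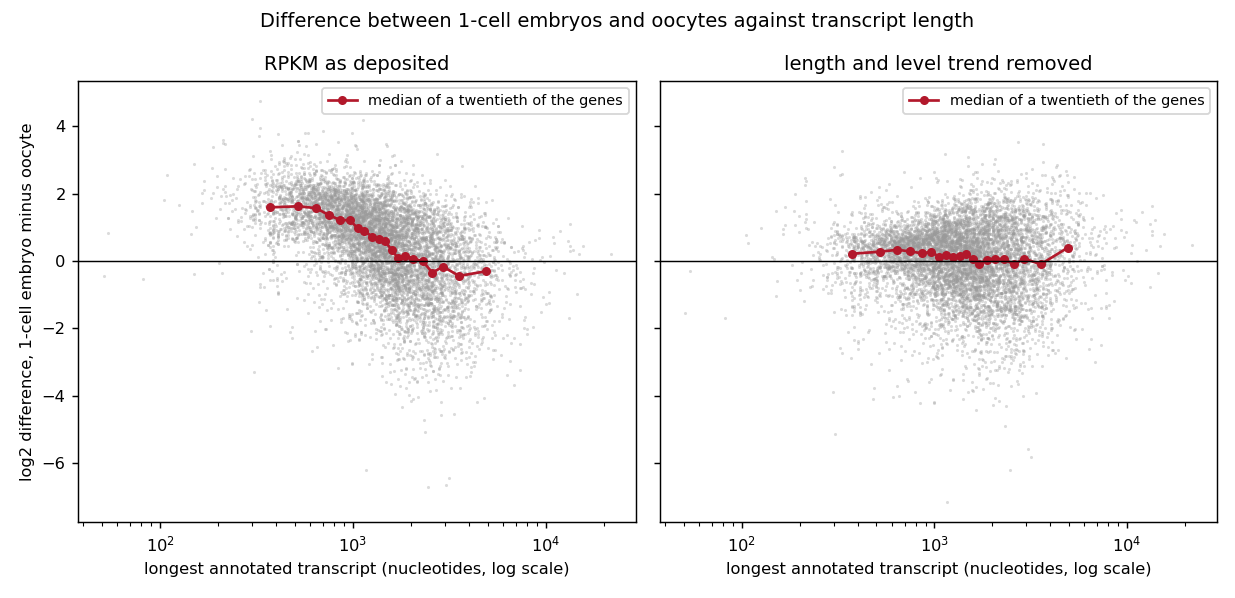
Each grey point is a gene, placed by the length of its longest annotated transcript in nucleotides (log scale) and by its log2 difference, 1-cell embryo minus oocyte, from 2 libraries each; red points are medians of 20 equal groups of genes by length. As deposited (left) the medians fall from short to long transcripts with a slope of -0.66 per doubling, and with the trend removed (right) the slope is -0.05.

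The deepest falls included genes of carbohydrate metabolism, RNA binding and germline signalling, and some genes that are given no role here. K04C1.5, to which no role is given here, stood at 105 and 165 RPKM in oocytes and 0.771 and 0.855 RPKM in 1-cell embryos (log2 difference -6.20, SE 0.47, adjusted p = 0.00301, and -7.15 with the trend removed, adjusted p = 0.00186). tsn-1 (F10G7.2), whose relatives hold Tudor and nuclease-like domains, stood at 481 and 549 RPKM in oocytes and 6.66 and 3.71 RPKM in 1-cell embryos (log2 -6.42, and -5.81 with the trend removed). In both genes every embryo library lay more than 10-fold below every oocyte library. The amino sugar synthesis genes gfat-1 and gfat-2 and the glycogen phosphorylase pygl-1 also fell, and they are described with their pathway. rga-9 went from 34.4 and 25.6 RPKM to 0.355 and 0.00612 RPKM (log2 -4.72, and -4.89 with the trend removed). dhs-17, of the short-chain dehydrogenase family, went from 23.4 and 31.7 RPKM to 0.942 and 0.772 RPKM (log2 -3.93, and -4.41 with the trend removed). Both were thus close to 0 in every embryo library. K04C1.5, rga-9 and dhs-17 passed the limit only through the oocytes, so the filter set the direction of their calls.

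The germline regulators lip-1 and sygl-1 were among the 12 deepest falls. lip-1 (C05B10.1), a phosphatase that restrains MAP kinase signalling in the germ line, stood at 132 and 138 RPKM in oocytes and 7.73 and 5.72 RPKM in 1-cell embryos (log2 -4.15, and -4.27 with the trend removed). sygl-1 (T27F6.4), a target of Notch signalling in germline stem cells, stood at 699.9 and 477 RPKM in oocytes and 50.1 and 79.7 RPKM in 1-cell embryos (log2 -3.17, and -4.197 with the trend removed), and its call as deposited ended with quantile normalization, with no filter and without 1-cell replicate 1. Short transcripts were rare among the falls. R06B9.5, with a transcript of 307 nucleotides, was one, at 120.5 and 77.9 RPKM in oocytes and 10.8 and 7.64 RPKM in 1-cell embryos (log2 -3.28, and -5.14 with the trend removed). Y19D10A.16 and C01B4.6 had the same transcript length and nearly the same values in each library (log2 -3.05 and -3.02), and reads of such near-identical copies may have been split between them, so they count as uncertain.

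The 12 largest rises with the trend removed included 5 genes known for nuclear RNA or chromatin, prpf-4, mfap-1, rbpl-1, chaf-1 and xnp-1, which are described first. prpf-4 (F22D6.5), a kinase of the spliceosome, rose from 11.9 and 14.96 RPKM to 73.8 and 221 RPKM (log2 difference 3.17, SE 0.59, adjusted p = 0.0122, and 3.52 with the trend removed, adjusted p = 0.0151). mfap-1 (F43G9.10), a spliceosome component, rose from 16.7 and 21.6 RPKM to 183 and 264 RPKM (log2 3.46, and 3.10 with the trend removed). rbpl-1 (F36F2.3), whose human relative RBBP6 acts in mRNA 3' end formation, rose from 15.03 and 15.5 RPKM to 80.9 and 162 RPKM (log2 2.83, and 3.48 with the trend removed). In each the embryo libraries lay above the oocyte libraries, with a wider spread between replicates than in oocytes. The remaining 2 of these 5 act on chromatin. chaf-1 (T06D10.2), the large subunit of the histone chaperone that assembles chromatin at replication, rose from 19.7 and 21.4 RPKM to 115.5 and 242 RPKM (log2 2.97, and 2.87 with the trend removed). xnp-1 (B0041.7), the worm relative of the chromatin remodeller ATRX, rose from 4.37 and 7.75 RPKM to 24.5 and 39.7 RPKM (log2 2.23, and 2.84 with the trend removed). The J-domain gene dnj-11 (F38A5.13) went from 49.3 and 45.7 RPKM to 197 and 428 RPKM (log2 2.59, and 3.02 with the trend removed).

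Of the other rises, icmt-1, ssp-16 and msrp-2 had high levels in sperm. icmt-1 (F21F3.3), the carboxyl methyltransferase of prenylated proteins, rose from 2.72 and 1.09 RPKM to 78.2 and 31.1 RPKM and stood at 237 and 143 RPKM in sperm. ssp-16 (T27A3.3), of the sperm-specific family with a major sperm protein domain, rose from 1.18 and 0.228 RPKM to 45.3 and 40.4 RPKM and stood at 2155 and 1980.2 RPKM in sperm. msrp-2 (ZK484.5) rose from 1.64 and 0.148 RPKM to 20.4 and 47.2 RPKM, with 3652 and 7681 RPKM in sperm. K07A12.1 (log2 2.85) and T05G5.1 (log2 3.41) rose as well, with lower sperm levels of 56.7 and 76.4 RPKM and of 6.94 and 9.74 RPKM. ndx-4 (Y37H9A.6), a hydrolase of dinucleoside polyphosphates, rose from 61.3 and 55.4 RPKM to 174 and 278 RPKM, but its annotated transcripts run from 529 to 3642 nucleotides, so the length that was removed is uncertain. The calls of all these rises ended without either oocyte library.

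**Figure D2:**
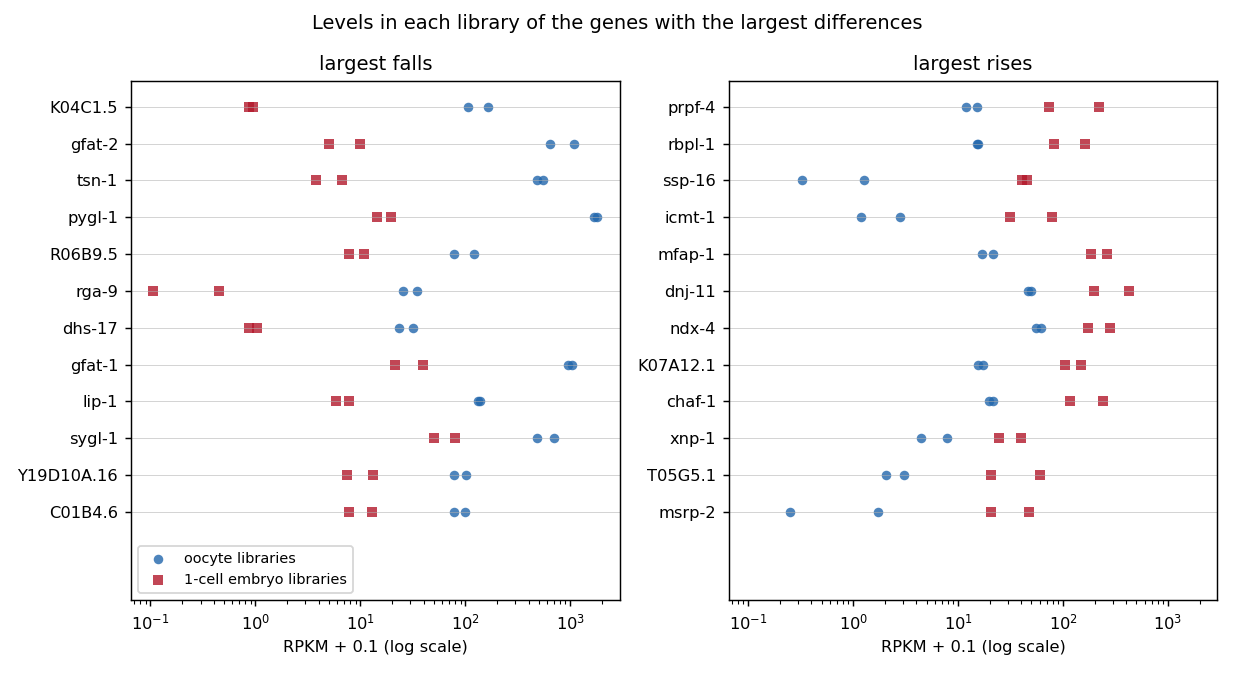
RPKM + 0.1 on a log scale in each oocyte library (blue circles) and each 1-cell library (red squares) for the 12 deepest falls (left) and the 12 largest rises (right), ranked by the log2 difference with the trend removed. In each gene the libraries of the 2 stages do not overlap; K04C1.5 has the deepest fall, to 0.771 and 0.855 RPKM, and prpf-4 the largest rise, to 73.8 and 221 RPKM.

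Genes of central carbon metabolism had low medians. Of 21 genes of the tricarboxylic acid cycle and of pyruvate dehydrogenase, 9 were called lower and 2 higher as deposited (median log2 -1.03, against 0.68 for all genes), and 7 and 1 with the trend removed (median -1.04, against 0.16). Their median was below 0 in each of the 6 fits. The falls hit enzymes at several steps of the cycle. mdh-2 (F20H11.3), the mitochondrial malate dehydrogenase, stood at 942 and 725 RPKM in oocytes and 165 and 166 RPKM in 1-cell embryos (log2 difference -2.31, SE 0.32, adjusted p = 0.00702, and -2.205 with the trend removed, adjusted p = 0.0102). sdha-1, the flavoprotein of succinate dehydrogenase, stood at 109 and 87.7 RPKM in oocytes and 7.54 and 9.51 RPKM in 1-cell embryos (log2 -3.38, and -3.28 with the trend removed). ogdh-1, of oxoglutarate dehydrogenase, stood at 145 and 184 RPKM in oocytes and 25.9 and 13.7 RPKM in 1-cell embryos (log2 -3.05, and -2.34 with the trend removed). In all 3 the libraries of the 2 stages lay more than 3-fold apart. dld-1, the subunit shared by the pyruvate and oxoglutarate dehydrogenases (log2 -2.28), fum-1, fumarase (-1.86), and idha-1, the alpha subunit of isocitrate dehydrogenase (-1.26), fell too, and these 6 were called lower in all 6 fits. Its gamma subunit gene idhg-1 went the other way, from 37.6 and 42.01 RPKM to 139 and 84.9 RPKM (log2 1.43, and 1.63 with the trend removed), and the succinyl-CoA ligase gene sucl-2 stood at 365 and 273 RPKM in oocytes and 331 and 422 RPKM in 1-cell embryos (log2 0.24, adjusted p = 0.741).

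Glycogen and amino sugar enzymes had the lowest median of the 56 functions with the trend removed, -1.32 over 13 genes (-1.54 as deposited), with 7 lower and 0 higher as deposited and 6 lower with the trend removed. The falls covered both the making and the breaking of glycogen. pygl-1 (T22F3.3), glycogen phosphorylase, stood at 1815 and 1670.2 RPKM in oocytes and 19.3 and 14.2 RPKM in 1-cell embryos (log2 -6.63, and -5.56 with the trend removed). gsy-1, glycogen synthase, stood at 203 and 247 RPKM in oocytes and 27.8 and 32.08 RPKM in 1-cell embryos (log2 -2.87, and -2.38 with the trend removed). agl-1, the debranching enzyme, stood at 18.9 and 36.8 RPKM in oocytes and 5.66 and 3.998 RPKM in 1-cell embryos (log2 -2.25, and -1.62 with the trend removed). The amidotransferases gfat-1 (log2 -5.06) and gfat-2 (-6.69), which open amino sugar synthesis, and the transketolase tkt-1 (-2.73) made up the 6. Later steps of the same amino sugar route did not pass the test: pgm-3 stood at 222 and 343 RPKM in oocytes and 299.8 and 180.5 RPKM in 1-cell embryos (log2 -0.25, adjusted p = 0.815), and gna-2 at 98.3 and 147 RPKM in oocytes and 490.2 and 229 RPKM in 1-cell embryos (log2 1.47, adjusted p = 0.0682). In glycolysis and gluconeogenesis 6 of 18 genes were lower and 0 higher as deposited, and 2 lower with the trend removed (median -0.92), with the hexokinase hxk-2 called in both fits, from 71.5 and 81.1 RPKM to 25.5 and 14.8 RPKM (log2 -1.92, and -1.997 with the trend removed).

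Of the lipid genes, those that supply building blocks for fatty acids included the falls, while the 20 genes of fatty acid synthesis had a median near that of all genes (0.69 as deposited and 0.19 with the trend removed). acly-1 and acly-2, both for ATP citrate lyase, went from 214 and 268 to 8.69 and 10.2 RPKM (log2 -4.53) and from 146 and 227 to 22.2 and 11.5 RPKM (log2 -3.43). pod-2, the acetyl-CoA carboxylase, went from 28.4 and 41.8 RPKM to 2.61 and 1.14 RPKM (log2 -3.68, and -3.001 with the trend removed). The acyl-CoA synthetase acs-13 went from 731 and 839 RPKM to 95.6 and 68.9 RPKM (log2 -3.25, and -2.196 with the trend removed). These were the 4 members called lower in both fits, and 0 of the 5 called higher as deposited stayed so with the trend removed. Of the other lipid genes, acdh-7 (log2 -2.04) and acdh-10 (-1.21), both acyl-CoA dehydrogenases, and hyl-2, a ceramide synthase (-2.13), fell in both fits. acdh-8, another acyl-CoA dehydrogenase, rose in both fits from 0.0746 and 0.0119 RPKM to 2.47 and 1.92 RPKM (log2 1.61, and 1.16 with the trend removed). It passed the limit through the embryos, was at 347 and 597 RPKM in sperm, and lost its call under 8 alternatives, among them the removal of length alone, a pseudocount of 5 and leaving out any 1 library. umps-1, which completes pyrimidine nucleotide synthesis, fell from 232 and 214 RPKM to 30.2 and 46.6 RPKM (log2 -2.54, and -2.61 with the trend removed), alone among 12 nucleotide synthesis genes to be called in both fits.

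The short genes of the respiratory chain and of the mitochondrial ribosome gave counts that differed widely between the fits. Of 67 mitochondrial ribosomal protein genes, 40 were higher and 0 lower as deposited (median 1.55), and 0 were called with the trend removed (median 0.27), with 19 kept. Of 76 cytosolic ribosomal protein genes, 26 were higher as deposited (median 1.09), and with the trend removed 0 were higher and 4 lower (median -0.42). Respiratory complexes III to V followed the same course, from 7 higher and 3 lower (median 0.58) to 0 and 1 (median -0.56). There were 3 exceptions that both fits called. atp-1 (H28O16.1), the alpha subunit of the ATP synthase, fell from 2378 and 1717 RPKM to 260.2 and 279.8 RPKM (log2 -2.90, and -1.64 with the trend removed). nuo-5 (Y45G12B.1) of complex I fell from 128 and 166 RPKM to 20.6 and 21.2 RPKM (log2 -2.74, and -2.41 with the trend removed). nuo-4 (K04G7.4) of the same complex rose from 69.2 and 84.9 RPKM to 269.6 and 339 RPKM (log2 1.97, and 2.12 with the trend removed). Mitochondrial import genes had 9 of 22 higher as deposited and 2 with the trend removed (median 0.37), and tin-44, a motor component of the inner membrane, rose from 16.7 and 14.9 RPKM to 129 and 80.8 RPKM (log2 2.62, and 2.22 with the trend removed).

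**Figure D3:**
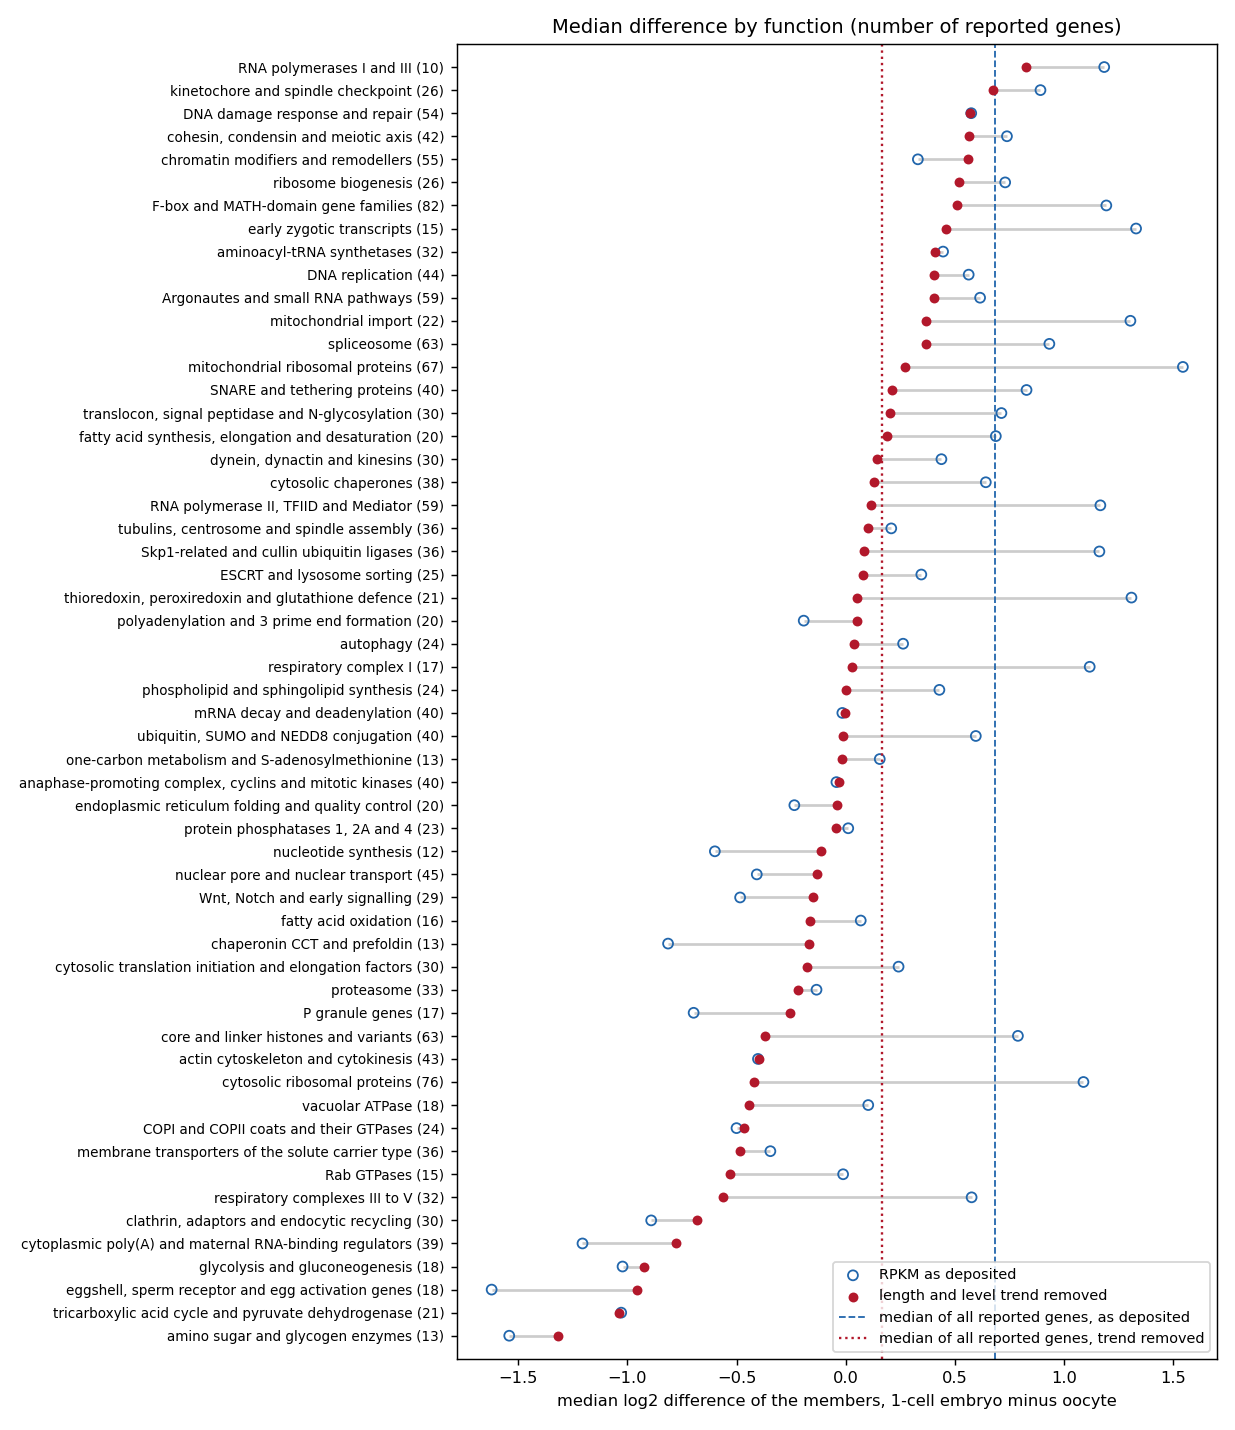
Median log2 difference, 1-cell embryo minus oocyte, of the reported members of 56 functions (number of members in brackets) as deposited (open blue circles) and with the length and level trend removed (red points), with the medians of all reported genes as vertical lines at 0.68 and 0.16. Glycogen, tricarboxylic acid cycle, eggshell and glycolysis genes have the 4 lowest medians with the trend removed, while ribosomal protein genes move from 1.09 to -0.42 as the trend is removed.

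Several coats and carriers of membrane traffic fell. COPI and COPII coats carry cargo between the endoplasmic reticulum and the Golgi. Of 24 coat genes and their GTPases 7 were lower and 5 higher as deposited, and 4 lower and 0 higher with the trend removed (median -0.47). copb-1 (Y25C1A.5), the beta subunit of COPI, stood at 244 and 207 RPKM in oocytes and 15.5 and 15.5 RPKM in 1-cell embryos (log2 difference -3.77, SE 0.35, adjusted p = 0.00566, and -3.11 with the trend removed, adjusted p = 0.00468). sec-23 (Y113G7A.3), of the inner COPII coat, stood at 173 and 172 RPKM in oocytes and 18.4 and 16.01 RPKM in 1-cell embryos (log2 -3.26, and -2.86 with the trend removed). arf-6 (Y116A8C.12), a small GTPase of the cell surface, stood at 52.5 and 52.9 RPKM in oocytes and 8.36 and 16.5 RPKM in 1-cell embryos (log2 -2.07, and -3.71 with the trend removed) although its transcript has only 639 nucleotides. sec-16A.1, of endoplasmic reticulum exit sites, was the other (log2 -1.89), and all 4 were lower in all 6 fits.

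Endocytic genes behaved likewise, with 10 of 30 lower and 2 higher as deposited (median -0.89) and 4 and 2 with the trend removed (median -0.68). dyn-1 (C02C6.1), the dynamin that pinches off vesicles, fell from 81.1 and 95.9 RPKM to 6.73 and 4.15 RPKM (log2 -3.82, and -3.65 with the trend removed). unc-11, the clathrin assembly adaptor AP180, fell from 53.96 and 62.4 RPKM to 6.05 and 3.71 RPKM (log2 -3.36, and -3.23 with the trend removed). The beta-adaptin apb-1 (log2 -1.82) and the yolk receptor rme-2 (-4.18) completed the 4. apb-3, the beta subunit of the AP-3 adaptor, instead rose from 23.8 and 25.5 RPKM to 61.7 and 71.2 RPKM (log2 1.39, and 1.83 with the trend removed).

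Rab GTPases, which mark the membranes of each compartment, were divided. rab-1, of traffic from the endoplasmic reticulum, stood at 507 and 456 RPKM in oocytes and 116.1 and 108 RPKM in 1-cell embryos (log2 -2.09, and -2.55 with the trend removed). rab-11.1, of recycling endosomes and cortical granules, stood at 674 and 575 RPKM in oocytes and 99.4 and 169 RPKM in 1-cell embryos (log2 -2.26, and -2.39 with the trend removed). rab-7, of late endosomes, stood at 135 and 148 RPKM in oocytes and 25.299 and 23.8 RPKM in 1-cell embryos (log2 -2.48, and -3.87 with the trend removed). These 3 of 15 fell in both fits, whereas rab-6.1, of the Golgi, rose from 159 and 185 RPKM to 1187 and 730.0 RPKM (log2 2.44, and 1.64 with the trend removed). Of 40 SNARE and tethering genes 12 were higher and 0 lower as deposited (median 0.83), and only the exocyst gene sec-6 was called higher in both fits (log2 1.40).

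Of 30 genes of protein entry into the secretory path and of N-glycosylation, 9 were higher (30%, against 24.7% of all genes) and 3 lower as deposited. Their median was 0.71, and 0.20 with the trend removed, close to the 0.68 and 0.16 of all genes. Both fits called 3 lower (10%, against 5.95%) and 0 higher. The channel subunit sec-61.A went from 878 and 882 RPKM to 197 and 131 RPKM (log2 -2.45, and -1.43 with the trend removed). srpa-72 of the signal recognition particle went from 81.8 and 98.7 RPKM to 12.11 and 16.99 RPKM (log2 -2.57, and -2.29 with the trend removed). Of the translocon-associated genes, trap-1 fell (log2 -1.53) and trap-4 was kept, at 787 and 712 RPKM in oocytes and 816 and 747 RPKM in 1-cell embryos. Folding and quality control genes of the endoplasmic reticulum had 0 of 20 called in both fits (median -0.24, and -0.04 with the trend removed). In autophagy, the kinase gene unc-51 fell from 38.2 and 35.1 RPKM to 5.90 and 3.41 RPKM (log2 -2.77, and -2.64 with the trend removed), while atg-13, whose product forms a complex with that kinase, rose from 15.1 and 15.6 RPKM to 109 and 51.9 RPKM (log2 2.22, and 1.69 with the trend removed).

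Cytosolic folding machines had members with unlike values within 1 complex. CCT is a ring of related subunits that folds actin and tubulin, and prefoldin hands it clients. As deposited 5 of the 13 genes were lower and 4 higher: the 5 were CCT genes and the 4 were prefoldin genes. The prefoldin rises ended with the trend removed, and all 8 CCT genes had both embryo libraries below both oocyte libraries. cct-7 (T10B5.5) stood at 503 and 457 RPKM in oocytes and 31.9 and 27.9 RPKM in 1-cell embryos (log2 difference -3.96, SE 0.39, adjusted p = 0.00566, and -3.61 with the trend removed, adjusted p = 0.00337). cct-8 (Y55F3AR.3) stood at 322 and 372 RPKM in oocytes and 36.8 and 36.2 RPKM in 1-cell embryos (log2 -3.21, and -2.62 with the trend removed). cct-5, whose transcript of 1931 nucleotides is close to the 1945 of cct-7, stood at 596 and 667 RPKM in oocytes and 409 and 277 RPKM in 1-cell embryos (log2 -0.90, adjusted p = 0.151, and 0.04 with the trend removed). The values of cct-7 were thus below those of cct-5 in both embryo libraries by more than 9-fold, while in oocytes both genes had 457 RPKM or more.

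Among 38 cytosolic chaperones and co-chaperones, 4 fell and 3 rose in both fits. hsp-1 (F26D10.3), the constitutive Hsp70, stood at 3445 and 3112 RPKM in oocytes and 355 and 234 RPKM in 1-cell embryos (log2 -3.50, and -2.08 with the trend removed). Partners of Hsp90 were found on either side. cdc-37, which brings kinases to Hsp90, fell from 363 and 319 RPKM to 72.01 and 79.9 RPKM (log2 -2.15, and -2.24 with the trend removed). sti-1, which links Hsp70 and Hsp90, fell from 526 and 425 RPKM to 81.8 and 144 RPKM (log2 -2.12, and -2.58 with the trend removed). ahsa-1, an activator of the Hsp90 ATPase, rose from 139 and 191 RPKM to 488 and 385 RPKM (log2 1.41, and 1.15 with the trend removed). Its call as deposited ended with a common sum, with median-of-ratios scaling, with quantile normalization and with length alone removed.

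Translation genes had few calls beyond the ribosome. Of 30 initiation and elongation factors 3 were higher and 3 lower as deposited, and 1 each in both fits. iff-1, the germline form of the factor eIF5A, rose from 415 and 345 RPKM to 1716 and 2039.7 RPKM (log2 2.303, and 1.41 with the trend removed). eif-3.B fell from 95.6 and 88.2 RPKM to 19.1 and 23.05 RPKM (log2 -2.08, and -1.76 with the trend removed). The abundant elongation factor gene eef-1A.1 fell from 8119 and 5445 RPKM to 1844 and 1380.4 RPKM (log2 -2.06), a call that ended with the trend removed (-0.69, adjusted p = 0.202), and its near-identical copy eef-1A.2 makes its counting uncertain. Of 32 aminoacyl-tRNA synthetases, wars-1 for tryptophan fell from 65.8 and 79.99 RPKM to 8.43 and 3.88 RPKM (log2 -3.44, and -3.62 with the trend removed) and ears-1 for glutamate fell as well (log2 -2.26).

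**Figure D4:**
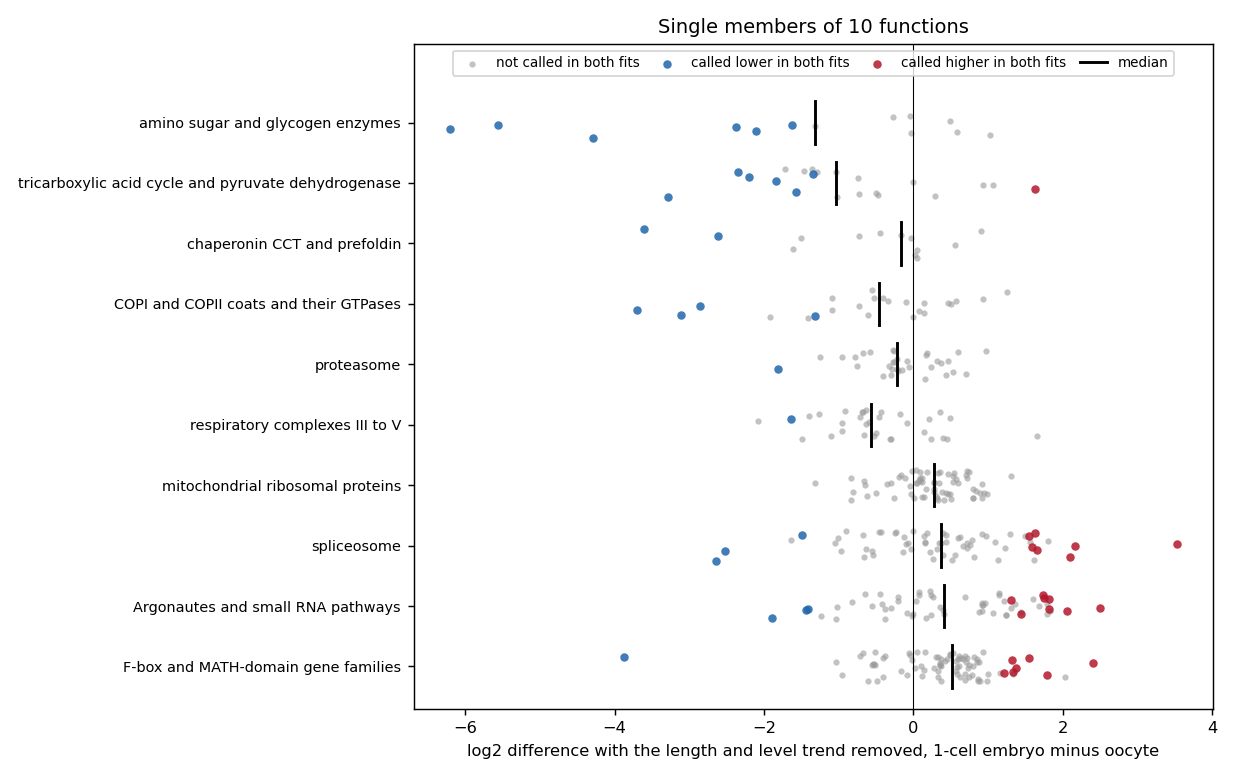
Log2 difference with the length and level trend removed, 1-cell embryo minus oocyte, for each reported member of 10 functions; blue and red points were called lower and higher in both fits, grey points were not, black bars are medians and the vertical scatter has no meaning. Some falls sit far below the median of their function, as for cct-7 at -3.61 in a list with a median of -0.17. Others do not, as for agl-1, which lies close to the median of -1.32 of the amino sugar and glycogen genes. Mitochondrial ribosomal proteins have no call.

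Some cytoskeleton and spindle genes fell. Of 43 genes of the actin cytoskeleton and of cytokinesis 9 were lower and 1 higher as deposited, and 6 and 0 with the trend removed (median -0.40). act-1 and act-2, nearly identical actins whose reads may be shared, went from 999 and 719.7 to 273 and 237 RPKM and from 2307 and 1814 to 626 and 521 RPKM (log2 -1.73 and -1.84). spd-1, which bundles microtubules of the central spindle, fell from 70.3 and 66.9 RPKM to 18.6 and 13.9 RPKM (log2 -2.02, and -2.28 with the trend removed). All members called in both fits were lower.

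tpxl-1, the activator of the Aurora A kinase, stood at 414 and 333 RPKM in oocytes and 24.9 and 36.7 RPKM in 1-cell embryos (log2 -3.58, and -3.27 with the trend removed). zyg-8, a microtubule-binding kinase needed for spindle position, stood at 35.7 and 30.7 RPKM in oocytes and 2.76 and 3.85 RPKM in 1-cell embryos (log2 -2.998, and -3.04 with the trend removed). These were the 2 of 36 tubulin, centrosome and spindle assembly genes that fell in both fits (5.56%, against 5.95% of all genes). Among motors, klp-7, a kinesin that takes microtubules apart, fell from 146 and 120.0 RPKM to 14.1 and 15.2 RPKM (log2 -3.09, and -2.81 with the trend removed) and the dynein regulator lis-1 from 98.9 and 103 RPKM to 25.7 and 22.5 RPKM (log2 -2.02, and -2.18 with the trend removed). dnc-2, a dynactin subunit, rose from 32.4 and 33.96 RPKM to 148 and 123 RPKM (log2 1.99, and 1.201 with the trend removed). Of the 30 dynein, dynactin and kinesin genes 7 were higher (23.3%, against 24.7% of all genes) and 3 lower as deposited. Both fits called 1 higher and 2 lower (6.67%, against 5.95%).

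Of 45 genes of the nuclear pore and of nuclear transport 5 fell and 1 rose in both fits. npp-9, the large pore protein that binds Ran, stood at 541 and 662 RPKM in oocytes and 70.1 and 94.3 RPKM in 1-cell embryos (log2 -2.86, and -1.69 with the trend removed). xpo-2, which exports importin alpha, stood at 528 and 416 RPKM in oocytes and 38.5 and 83.6 RPKM in 1-cell embryos (log2 -3.02, and -1.96 with the trend removed). The importin alpha genes themselves went apart: ima-3 fell from 228 and 229.6 RPKM to 54.6 and 49.3 RPKM (log2 -2.12) and ima-1 rose from 57.4 and 66.3 RPKM to 197 and 153 RPKM (log2 1.48). The call of ima-1 did not hold in all 6 fits.

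Several kinases and phosphatases of early signalling fell. Of 29 genes of Wnt, Notch and related pathways, 6 were lower and 0 higher in either fit (median -0.48, and -0.15 with the trend removed). kin-19, the casein kinase 1 alpha, stood at 425 and 367 RPKM in oocytes and 76.9 and 108 RPKM in 1-cell embryos (log2 -2.11, and -1.59 with the trend removed). gsk-3, the kinase that acts beside it in the Wnt pathway, stood at 97.1 and 84.9 RPKM in oocytes and 7.77 and 2.53 RPKM in 1-cell embryos (log2 -4.04, and -4.14 with the trend removed). lit-1, the Nemo-like kinase of endoderm specification, stood at 56.7 and 50.2 RPKM in oocytes and 6.91 and 8.44 RPKM in 1-cell embryos (log2 -2.65, and -2.44 with the trend removed). In these 3 every embryo library lay more than 3-fold below every oocyte library. pry-1, sel-8 and lag-2 were the other members, and lag-2 was near the lower limit of the comparison at 2.70 and 2.13 RPKM in oocytes and 0.564 and 0.740 RPKM in 1-cell embryos. lag-2 thus passed the limit only through the oocytes, and the filter set its direction. Of 23 phosphatase genes 3 fell and 0 rose in both fits, among them pph-5, from 80.7 and 74.4 RPKM to 9.59 and 9.57 RPKM (log2 -2.89, and -3.14 with the trend removed), and the protein phosphatase 1 gene gsp-1, from 213 and 216 RPKM to 34.99 and 83.4 RPKM (log2 -1.97, and -1.81 with the trend removed).

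Spliceosome genes included rises and falls. Of 63 genes 20 were higher (31.7%, against 24.7% of all genes) and 4 lower as deposited (median 0.93), and 10 (15.9%, against 5.44%) and 3 with the trend removed (median 0.37, against 0.16 for all genes). The median stayed above 0 in each of the 6 fits, from 0.17 to 0.93. prp-38, of the tri-snRNP, rose from 57.6 and 58.9 RPKM to 396 and 223 RPKM (log2 difference 2.33, SE 0.39, adjusted p = 0.00965, and 1.65 with the trend removed, adjusted p = 0.0198). ddx-23, a helicase that unwinds the U4 and U6 RNAs, rose from 21.9 and 19.4 RPKM to 78.5 and 93.5 RPKM (log2 2.003, and 2.16 with the trend removed). prp-31, prp-9, mog-1 and sap-140 rose too, with log2 differences of 1.61, 1.95, 1.59 and 1.3505, while only prp-38 and prpf-4 of the 7 risers were higher in all 6 fits.

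The same list held 3 members that fell. uaf-1, the large subunit of U2AF, fell from 213 and 197 RPKM to 53.5 and 82.3 RPKM (log2 -1.61, and -1.49 with the trend removed). sap-49, of the SF3b complex, fell from 193 and 159.9 RPKM to 31.9 and 47.6 RPKM (log2 -2.14, and -2.64 with the trend removed). The third was rnp-8, which is known as a partner of the cytoplasmic poly(A) polymerase GLD-2 rather than for splicing, and which went from 259 and 215 RPKM to 30.2 and 27.2 RPKM (log2 -2.998, and -2.53 with the trend removed). Among 3' end genes the nuclear poly(A) polymerase gene pap-1 rose from 20.04 and 18.7 RPKM to 55.8 and 44.1 RPKM (log2 1.31, and 1.81 with the trend removed), with the 3' end factors cfim-2 (log2 1.74) and cpsf-2 (1.40), and none of these 3 rises was called in all 6 fits.

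Transcription machinery had a high median as deposited that came close to that of all genes with the trend removed. Of 59 genes of RNA polymerase II, TFIID and Mediator 15 were higher and 4 lower (median 1.17), and 9 and 3 with the trend removed (median 0.12). taf-5 rose from 17.6 and 15.1 RPKM to 66.5 and 42.95 RPKM (log2 1.66, and 1.74 with the trend removed) and taf-7.2 from 71.9 and 83.7 RPKM to 219 and 219.9 RPKM (log2 1.49, and 1.498 with the trend removed), both of TFIID. cdk-9, the kinase that releases the polymerase into elongation, fell from 49.5 and 45.5 RPKM to 17.01 and 20.5 RPKM (log2 -1.301, and -1.74 with the trend removed). Of 10 genes of RNA polymerases I and III 4 were higher and 0 lower (median 1.19, and 0.83 with the trend removed), and rpac-19, a subunit shared by both enzymes, rose from 69.99 and 73.9 RPKM to 439 and 558 RPKM (log2 2.77, and 1.18 with the trend removed).

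Some chromosome and repair genes rose. DNA repair genes had 11 higher (20.4%, against 24.7% of all genes) and 2 lower of 54 as deposited, and 4 (7.41%, against 5.44%) and 0 with the trend removed (median 0.57 against 0.16). smc-5, of the SMC5/6 complex, rose from 10.9 and 15.5 RPKM to 72.3 and 32.5 RPKM (log2 1.82, and 2.24 with the trend removed). rad-50, of the complex that senses double strand breaks, rose from 6.44 and 11.1 RPKM to 22.8 and 48.4 RPKM (log2 1.85, and 2.44 with the trend removed). The nucleases fan-1 (log2 1.09) and xpg-1 (1.53) also rose, but 0 of these 4 were called in all 6 fits. With median-of-ratios scaling the median of the list was -0.15.

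Genes of cohesin, condensin and the meiotic axis had medians of 0.74 as deposited and 0.56 with the trend removed, against 0.68 and 0.16 for all genes. As deposited 7 of 42 were higher (16.7%, against 24.7% of all genes) and 1 lower. With the trend removed 5 were higher (11.9%, against 5.44%) and 1 lower. The median of the list was 0.01 with median-of-ratios scaling. Products of these genes hold and pair chromosomes. htp-1, of the axis, rose from 119.2 and 125 RPKM to 323 and 324 RPKM (log2 1.40, and 1.12 with the trend removed). syp-1, of the synaptonemal complex, rose from 11.1 and 9.18 RPKM to 56.7 and 30.9 RPKM (log2 1.95, and 2.22 with the trend removed). The condensin subunits mix-1 and dpy-28 moved in opposite directions: mix-1 rose from 12.4 and 12.8 RPKM to 27.2 and 60.5 RPKM (log2 1.61, and 2.27 with the trend removed) and dpy-28 fell from 25.96 and 28.6 RPKM to 4.80 and 4.59 RPKM (log2 -2.31, and -1.69 with the trend removed). Kinetochore genes had 8 of 26 higher (30.8%, against 24.7% of all genes) and 1 lower as deposited (median 0.89). With the trend removed 2 were higher (7.69%, against 5.44%) and 0 lower (median 0.67), the 2 being czw-1 and ndc-80.

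Chromatin modifiers had a median of 0.33 as deposited and 0.56 with the trend removed over 55 genes, with 2 higher and 4 lower, and 8 higher and 3 lower, in these fits. Their transcripts are long, with a median of 2480 nucleotides against 1415 for all genes. set-17, a histone methyltransferase gene, rose from 59.4 and 74.3 RPKM to 357 and 259 RPKM (log2 2.18, and 1.34 with the trend removed). mys-2, a MYST family acetyltransferase, fell from 88.3 and 75.7 RPKM to 21.9 and 10.3 RPKM (log2 -2.36, and -2.47 with the trend removed). set-26, a SET domain gene, fell from 54.1 and 55.7 RPKM to 9.25 and 4.48 RPKM (log2 -2.90, and -2.04 with the trend removed). The median of the list was -0.43 with median-of-ratios scaling, so that no direction held across the scalings.

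RNA decay genes went in both directions. As deposited 8 of 40 were higher (20%, against 24.7% of all genes) and 7 lower (17.5%, against 8.64%), with a median of -0.01. With the trend removed 5 were higher (12.5%, against 5.44%) and 5 lower (12.5%, against 8.21%), with a median of 0.00. Both fits called 5 lower and 4 higher. ntl-3, of the CCR4-NOT complex, went from 133 and 135 RPKM to 23.5 and 23.1 RPKM (log2 -2.47, and -2.08 with the trend removed). xrn-1, the cytoplasmic 5' exonuclease, went from 34.3 and 36.5 RPKM to 4.21 and 4.36 RPKM (log2 -2.78, and -2.03 with the trend removed). The nuclear exonuclease xrn-2 (log2 -2.25), panl-3 (-2.0996) and tsn-1 fell as well. The rises were those of smg-3 (log2 1.29) and smg-4 (1.76), of nonsense-mediated decay, and of dis-3 (1.66) and crn-3 (1.39), of the exosome. The 5 falls were called in all 6 fits and the 4 rises were not, but this limit is stricter for rises.

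Small RNA genes included rises and falls. Of 59 genes 11 were higher (18.6%, against 24.7% of all genes as deposited and 5.44% with the trend removed) and 3 lower in each fit (median 0.62 as deposited and 0.40 with the trend removed), and 8 and 3 were called in both. ego-1, an RNA-dependent RNA polymerase, rose from 5.64 and 6.83 RPKM to 34.2 and 16.8 RPKM (log2 1.80, and 2.4998 with the trend removed). mut-2, a nucleotidyltransferase of RNA interference, rose from 27.1 and 23.5 RPKM to 199 and 70.05 RPKM (log2 2.18, and 1.81 with the trend removed). The nuclear RNA interference genes nrde-1 (log2 1.68) and nrde-4 (1.99), the exonuclease eri-1 (1.89), tofu-4 (2.02) and the Argonautes alg-5 (1.27) and rde-1 (1.12) rose too. The microRNA Argonautes alg-1 and alg-2 fell, from 26.4 and 28.9 to 6.26 and 4.37 RPKM and from 149 and 109.6 to 20.01 and 26.5 RPKM, as did wago-4, from 127 and 145 RPKM to 24.3 and 20.2 RPKM (log2 -2.56, and -1.89 with the trend removed). In this list 3 falls and 0 rises were called in all 6 fits, a limit that is stricter for rises. The median of the list was -0.12 with median-of-ratios scaling. In P granules, germline RNA bodies, pgl-3 fell from 362 and 382 RPKM to 33.3 and 32.8 RPKM (log2 -3.45, and -2.91 with the trend removed) while its relative pgl-2 rose from 7.43 and 7.94 RPKM to 42.2 and 30.4 RPKM (log2 2.09, and 1.86 with the trend removed).

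The known groups gave the scale for these changes. Of 39 maternal RNA-binding regulators 16 were lower and 1 higher as deposited (median -1.21), and of 18 eggshell, sperm receptor and egg activation genes 7 were lower and 2 higher (median -1.62). With the trend removed 10 and 4 members were lower (medians -0.78 and -0.95). The 7 eggshell calls ended when no filter on low values was used. As a share of the summed RPKM of a library, the eggshell group went from 3.17% and 3.08% in oocytes to 0.439% and 0.301% in 1-cell embryos. The glycogen and amino sugar genes went from 0.731% and 0.874% to 0.160% and 0.101%, and tubulin, centrosome and spindle genes from 2.3001% and 1.93% to 0.771% and 0.858%. The last list had a median log2 difference of 0.21, and 0.10 with the trend removed, so its share followed a few abundant members. In the other direction, RNA polymerase II, TFIID and Mediator genes went from 0.692% in each oocyte library to 1.25% and 1.39%, and spliceosome genes from 1.74% and 1.54% to 2.25% and 2.63%. None of these shares had the length trend removed. With it removed the medians of the last 2 lists were 0.12 and 0.37, against 0.16 for all genes.

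The most abundant kept genes included proteasome genes and housekeeping genes of the secretory path. The 8 kept genes with the highest level had from 418 to 1003 RPKM in every library of both stages. They were atp-5 of the ATP synthase, trap-4, the proteasome genes pas-6 and pas-7, the replication protein rpa-2, the GTPase arf-5, the proton pump gene vha-1 and F44E5.1. pas-6 stood at 745 and 650.4 RPKM in oocytes and 793 and 603 RPKM in 1-cell embryos (log2 -0.01, 95% confidence interval within -1 and 1). rpa-2 stood at 542 and 542 RPKM in oocytes and 643 and 680.1 RPKM in 1-cell embryos (log2 0.28). In pas-6 the libraries of both stages overlapped, and in rpa-2 both embryo libraries lay slightly above the oocyte libraries. vha-1 and F44E5.1, with transcripts of 510 and 349 nucleotides, were called lower with the trend removed (log2 -1.51 and -1.61). In F44E5.1 this reversed the sign from 0.20.

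The 33 proteasome genes included 3 called lower and 0 higher as deposited, 2 and 0 with the trend removed, and 11 kept with the trend removed (33.3%, against 14.3% of all genes). Their log2 differences had a median of -0.13, and of -0.22 with the trend removed. rpt-6, an ATPase of the base, was called lower in both fits, from 329.9 and 329.6 RPKM to 86.8 and 109 RPKM (log2 -1.75, and -1.82 with the trend removed). Its partner in the ATPase ring rpt-4 was kept, at 294 and 358 RPKM in oocytes and 279 and 428 RPKM in 1-cell embryos (log2 0.09). The libraries of the stages did not overlap in rpt-6 and overlapped in rpt-4.

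Substrate receptors for ubiquitin ligases had 6 members of 82 that were higher in all 6 fits, against 1.74% of all genes. F-box and BATH proteins, the latter with BTB and MATH domains, choose what cullin ligases mark for destruction. The limit of 1 RPKM was passed by 82 of 380 such genes. Of the 82, 36 were higher and 1 lower as deposited (median 1.195), 7 and 1 with the trend removed (median 0.51). Of the 82, 57 reached 1 RPKM in both oocyte libraries and 80 in both 1-cell libraries, so part of them passed only through the stage where they are high, which raises these counts and this median. bath-30 rose from 57.96 and 67.7 RPKM to 315 and 241 RPKM (log2 difference 2.12, SE 0.32, adjusted p = 0.00829, and 1.33 with the trend removed, adjusted p = 0.0352). bath-5 rose from 23.8 and 31.2 RPKM to 169 and 118.6 RPKM (log2 2.34, and 1.32 with the trend removed). bath-13 rose from 0.474 and 0.275 RPKM to 11.7 and 13.7 RPKM (log2 3.32, and 2.40 with the trend removed). bath-27, bath-29 and fbxa-150 were the others called in all 6 fits, with log2 differences of 2.06, 2.40 and 1.95. bath-40 fell from 301 and 245 RPKM to 21.6 and 22.2 RPKM (log2 -3.58, and -3.87 with the trend removed).

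Of the cullin scaffolds of such ligases, 2 fell in both fits. cul-3, the cullin that BTB proteins join, went from 213 and 236 RPKM to 36.03 and 32.03 RPKM (log2 -2.69, and -1.89 with the trend removed). cul-2 went from 164 and 197 RPKM to 26.8 and 43.5 RPKM (log2 -2.37, and -1.66 with the trend removed). Among Skp1-related adaptors skr-12 rose from 0.998 and 0.671 RPKM to 18.8 and 22.5 RPKM (log2 3.56, and 2.19 with the trend removed), with 2.54 and 0.332 RPKM in sperm. It passed the limit only through the embryos, so the filter set its direction. Conjugating enzymes had 3 members of 40 lower in both fits (7.5%, against 5.95% of all genes). They included ubc-20, from 412 and 338 RPKM to 69.6 and 108 RPKM (log2 -2.09, and -2.99 with the trend removed), and uba-2 of the SUMO pathway, from 183 and 187 RPKM to 28.2 and 44.9 RPKM (log2 -2.34, and -1.73 with the trend removed).

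Genes on the X chromosome had lower differences than autosomal genes, which is given here as a description with no test. The X is largely silent in the germ line of the worm until late oogenesis. Of 769 X-linked genes 88 were called higher (11.4%) and 78 lower (10.1%), with a median log2 difference of 0.16. Of 6915 autosomal genes 1811 were called higher (26.2%) and 566 lower (8.19%), with a median of 0.75. With the trend removed the medians were -0.26 and 0.21, with 12 X-linked genes higher (1.56%) and 97 lower (12.6%), against 5.87% and 7.72% of autosomal genes. X-linked genes were also lower in level, with a median of 12.5 RPKM against 34.5, and longer, with a median transcript of 1629 nucleotides against 1393.

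The lower median of the X held in each class of length and of level. For transcripts up to 800, from 800 to 2000 and over 2000 nucleotides, the medians with the trend removed were -0.17, -0.27 and -0.26 on the X and 0.31, 0.19 and 0.14 on autosomes. For mean levels below 10, from 10 to 50 and of at least 50 RPKM they were -0.08, -0.38 and -0.54 on the X and 0.32, 0.21 and 0.13 on autosomes. The autosomes differed less among themselves, with medians from 0.19 to 0.24. At least 10 RPKM in both sperm libraries was found for 9.36% of the X-linked genes and 61.5% of the autosomal ones, and its part in the difference was not tested.

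**Figure D5:**
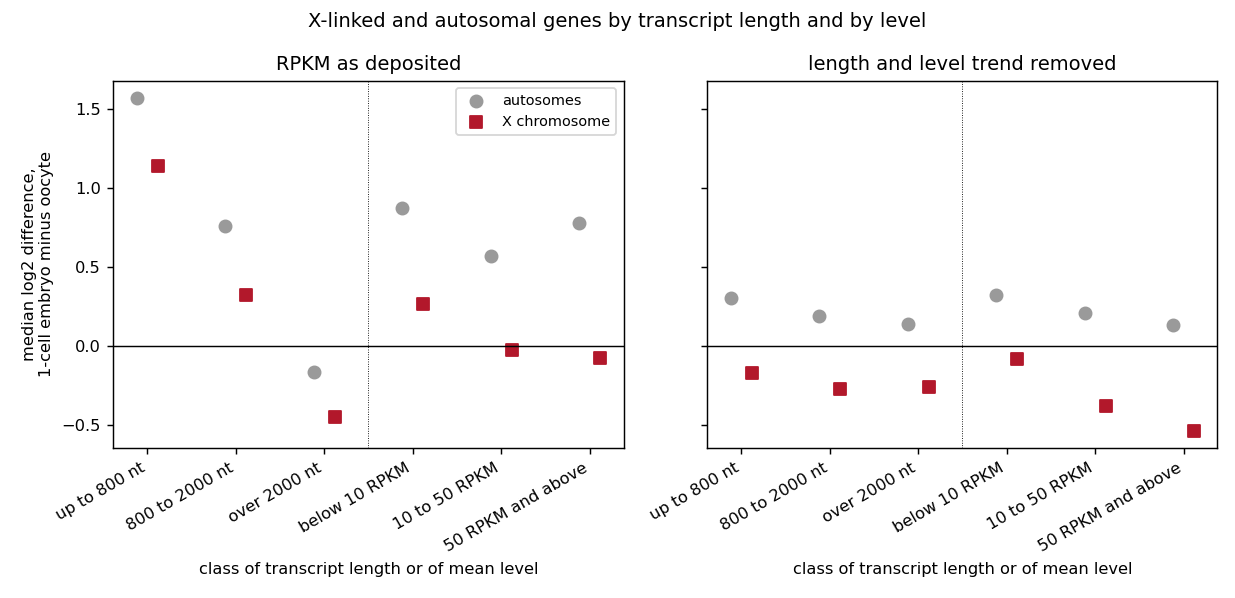
Median log2 difference, 1-cell embryo minus oocyte, of X-linked genes (red squares) and autosomal genes (grey circles) in 3 classes of transcript length and 3 classes of mean level, as deposited (left) and with the length and level trend removed (right). The X lies below the autosomes in each class of both panels, at -0.54 against 0.13 for the most abundant class with the trend removed.

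Few genes switched between near absence and clear presence. Each of them passed the limit through 1 stage only, so its direction was set by the selection. From at least 10 RPKM in both oocyte libraries to under 1 RPKM in both 1-cell libraries went 4 genes: K04C1.5, rga-9, dhs-17 and 2RSSE.2, the last from 26.8 and 23.1 RPKM to 0.330 and 0 RPKM. They stayed low in 2-cell embryos, where K04C1.5 stood at 0.471 and 0.563 RPKM and dhs-17 at 1.34 and 0.905 RPKM. In the opposite direction went 10 genes, and 5 of these reached 10 RPKM in both libraries of sperm (50%, against 53.9% of all reported genes). C04F12.7 rose from 0.478 and 0.0793 RPKM to 17.1 and 17.1 RPKM with 1352 and 3267 RPKM in sperm. nspd-4, of a nematode-specific peptide family, rose from 0.855 and 0.0435 RPKM to 10.5 and 20.2 RPKM with 2336 and 3711 RPKM in sperm. C02F5.10, ssp-35 and K08C9.2 were the other 3 with sperm transcripts. bath-13, skr-12, F13G3.10c, RIT5M.390 and RIT5P.99 had under 10 RPKM in at least 1 sperm library, the level of bath-13 being 2.34 and 2.65 RPKM there.

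Sperm transcripts moved with the comparison. Of 60 sperm marker genes 31 passed the limit, of which 0 reached 1 RPKM in both oocyte libraries and 29 did so in both 1-cell libraries. They passed through the stage where they are high, so a count of their calls has no meaning and none is given. Their summed level was 37.4 and 4.35 RPKM in oocytes, 171 and 212 RPKM in 1-cell embryos, and 219933 and 240750 RPKM in sperm, so the oocyte libraries differed from each other as well. Of the 332 genes called higher in both fits 72.6% reached 10 RPKM in both libraries of sperm, against 53.9% of all reported genes and 59.96% of the 457 called lower in both fits. As deposited the order was the other way, with 55.5% of the genes called higher and 62.7% of those called lower. The share also went with level, from 21.4% of genes below 10 RPKM to 83.2% of those at 50 RPKM and above. Of the adenine nucleotide carrier family, ant-1.3 and ant-1.4 rose from 2.16 and 1.32 to 34.1 and 22.6 RPKM and from 1.09 and 0.236 to 14.5 and 18.97 RPKM, with 383 and 271 and 216 and 184 RPKM in sperm. The part of sperm RNA in the rises was not tested beyond these values.

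Markers of somatic tissue were low in both stages, which bears on the differing collection. Of 161 cuticle collagen and hypodermis genes 16 passed the limit, 15 with 1 RPKM in both oocyte libraries and 5 in both 1-cell libraries. Most thus passed only through the oocytes, where they are high, so the direction of the calls among them was set by the filter. Called lower in both fits were the collagens col-140, col-119, col-122, col-106 and col-181, at 1.08 to 6.51 RPKM in oocytes, at most 0.203 RPKM in 1-cell embryos and 49.5 to 560 RPKM in sperm. The whole list summed to 55.2 and 80.9 RPKM in oocytes and 83.3 and 36.9 RPKM in 1-cell embryos. Muscle markers summed to 10.6 and 7.10 against 19.2 and 14.7 RPKM, with 3 of 15 reported and 0 called. Intestine markers summed to 8.20 and 9.66 against 8.91 and 9.14 RPKM, and somatic gonad markers to 3.41 and 2.94 against 3.10 and 1.87 RPKM, with lag-2 as the 1 member called lower. lag-2 passed the limit only through the oocytes, so the filter set its direction. Yolk protein genes summed to 4.26 and 5.28 against 0.436 and 0.00859 RPKM. The neuron list summed to more, with 490.0 and 411 against 399 and 630.2 RPKM, through snb-1, a synaptobrevin, with 462 and 379 RPKM in oocytes and 209 and 424 RPKM in 1-cell embryos.

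Oocyte markers were found in both stages, with lower sums in 1-cell embryos. All 14 oocyte markers were above 1 RPKM in both stages, with sums of 27398 and 25891 RPKM in oocytes and 11931 and 11730 RPKM in 1-cell embryos, and 8 were lower as deposited and 6 in both fits. Genes listed as markers of older embryos summed to 7.67 and 9.45 RPKM in oocytes and 22.2 and 18.1 RPKM in 1-cell embryos, with 4 of 12 reported. Of these, 2 reached 1 RPKM in both oocyte libraries and 4 in both 1-cell libraries. Markers of earlier germ cells, which would show gonad tissue in a hand-picked sample, had 18 of 18 reported and summed to 1592 and 1479.6 RPKM in oocytes and 2149.8 and 1274 RPKM in 1-cell embryos. As deposited 4 were higher (22.2%, against 24.7% of all genes) and 1, sygl-1, was lower (5.56%, against 8.64%), with a median of 0.83. In whole oocytes and embryos, fewer cells of a type and less RNA per cell cannot be told apart.

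Membrane transporters and zygotic genes gave mixed results. Of 36 solute carrier genes 7 were lower and 2 higher as deposited and 6 and 3 with the trend removed (median -0.49). The monocarboxylate transporter genes mct-1 and mct-2 fell, from 44.5 and 72.1 to 4.82 and 5.12 RPKM and from 18.99 and 31.3 to 2.13 and 2.55 RPKM (log2 -3.27 and -2.93). nkcc-1, a cation and chloride cotransporter, fell from 14.7 and 31.7 RPKM to 1.94 and 1.33 RPKM (log2 -3.11, and -2.73 with the trend removed). Of 15 reported early zygotic transcripts 7 were higher (46.7%, against 24.7% of all genes) and 2 lower as deposited. With the trend removed 1 was higher (6.67%, against 5.44%) and 2 lower. Of the 15, 10 reached 1 RPKM in both oocyte libraries and 14 in both 1-cell libraries. Part of them thus passed only through the stage where they are high, which raises the count of rises. Among the 15, vet-2 rose from 3.51 and 4.88 RPKM to 18.9 and 15.6 RPKM (log2 1.82, and 1.74 with the trend removed). The transcription factor gene die-1 fell from 39.6 and 45.1 RPKM to 9.93 and 9.19 RPKM (log2 -2.04, and -1.88 with the trend removed).

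A count by gene class, the letters before the hyphen of a gene name, covered functions outside the lists. There were 93 classes with at least 8 reported members. With the trend removed the lowest medians were those of col (cuticle collagens, -1.77), puf (Pumilio-type RNA-binding proteins, -1.16), cct (the chaperonin, -1.12), alh (aldehyde dehydrogenases, -1.05), daf (dauer formation, -0.82) and lido (-0.81). The highest were those of nspd (nematode-specific peptides, 1.59), him (high incidence of males, 1.19), gldi (1.12), prp (pre-mRNA processing, 0.81), fbxb (F-box proteins, 0.71) and let (lethal mutants, 0.71). Most col members passed the limit only through the oocytes and the nspd members and most fbxb members only through the embryos, so the filter set the direction of these medians. alh had 1 of 8 lower in either fit, so its low median came without many calls. In 41 of the 93 classes the median with the trend removed was above that of all genes.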

How the data were processed

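Polyadenylated RNA of 8 libraries was analysed, 2 each from oocytes, sperm and embryos of 1 and of 2 cells, grouped by their labels. The authors deposited one table of RPKM per gene, and the submitters' processing notes name BWA. Its version, the genome build, the annotation, the counting tool and the number of reads are not given in the sources used here, so the depth is unknown and no counting interval is given. Nothing in the protocol marks strand, so overlapping antisense genes cannot be told apart.

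log2(RPKM + 1) of each gene that reached 1 RPKM in 2 or more libraries was fitted with limma 3.58.1 in R 4.3.3, with all 4 groups, a variance trend and Benjamini-Hochberg adjustment over all 11935 genes fitted. Such fold changes understate those of low genes. For the second fit, a local linear regression with span 0.3 on length and level together was taken out of each library. Lengths are of the longest transcript in the Ensembl annotation of WBcel235, which matched 18746 genes and not 3028 others, 489 of them reported. Both fits were also run on simulated data with independent noise that was equal in all libraries. The real libraries differ in spread between stages and are not all independent, so this gives no check of the p-values.

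Genes were named by rule: the 12 largest differences per direction with the trend removed, called in both fits, with a mean of 10 RPKM in 1 stage and libraries that do not overlap; the 8 most abundant kept genes; and up to 3 members per function by level. Others, such as further members of a function, were chosen after their values were seen. The genes, functions and markers were chosen with earlier results of these data known. Same-numbered oocyte and 1-cell libraries deviated from their group means with r = -0.189, so numbers were not treated as pairs. Between same-numbered 1-cell and 2-cell libraries r was 0.891, yet the fit took all libraries as independent. The spread shared by the 4 groups thus rests on less independent information than assumed, and adjusted p-values may be too small. With only the compared groups fitted 1560 genes were higher and 580 lower, and 183 and 434 with the trend removed.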

Additional observations from a re-analysis of the deposited data

How the results depend on the processing

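Calls of higher genes depended on the scaling. Against 2017 higher genes as deposited there were 940 with a common sum, 518 with median-of-ratios scaling, 553 with quantile normalization, 568 with length removed, 418 with length and level removed, 541 with that trend taken from the shortest transcript, and 974 with no filter on low values. Lower genes numbered 706, against 1340 with median-of-ratios scaling and 393 with no filter. Kept genes numbered 350, against 204 with a filter of 5 RPKM, 99 and 1813 with pseudocounts of 0.1 and 5, 842 with library weights, 681 with quantile normalization, 623 with length removed, 1102 with length and level removed and 988 with the shortest transcript. With the trend removed, 418 genes were higher, against 772 with library weights, 231 with no filter and 183 with only the compared groups fitted. The cause was not tested.

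Leaving out 1 library at a time gave 0 to 1902 higher, 6 to 731 lower and 16 to 658 kept genes, and with the trend removed 0 to 355 higher and 6 to 607 lower, all lowest without an oocyte library. The lone library left was then assumed to vary like the other groups.

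With a replicate block 2408 genes were higher and 784 lower. The numbers share no stated origin: deviations correlated at -0.189 between oocytes and 1-cell embryos, 0.891 between the embryo stages and -0.0884 between oocytes and 2-cell embryos. A block with the oocyte numbers crossed, added after the data were seen, gave 2643 higher, 893 lower and 591 kept, and 679 higher with the trend removed.

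Of 4229 values of 184 named genes across 23 alternatives 3541 stayed on their side of the threshold, 671 lost a call, 16 gained one and 1 reversed: F44E5.1 was -1.61 with length and level removed. Of 3036 list counts 1041 moved by over 1.5 times. Removal of a GC trend was not run.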

Other observations

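Functions not described above gave few members that were called in both fits. Redox defence genes of the thioredoxin, peroxiredoxin and glutathione systems had 10 of 21 higher and 0 lower as deposited (median log2 1.31), but with the trend removed only 1 was higher (median 0.05). This was trxr-2, the mitochondrial thioredoxin reductase, which rose from 1.52 and 1.78 RPKM to 40.6 and 12.2 RPKM (log2 3.15, and 2.65 with the trend removed) and was called in all 6 fits. Of 13 one-carbon genes 3 were higher as deposited (23.1%, against 24.7% of all genes) and 2 with the trend removed (15.4%, against 5.44%). sams-5, an S-adenosylmethionine synthetase, rose from 0.485 and 0.313 RPKM to 12.13 and 6.78 RPKM (log2 2.86, and 2.24 with the trend removed), and mtrr-1, which reactivates methionine synthase, rose from 25.02 and 29.1 RPKM to 91.5 and 59.4 RPKM (log2 1.42, and 1.52 with the trend removed). The reads of sams-5 may be shared with close relatives in its family. sams-5 also passed the limit only through the embryos, so the filter set its direction.

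Cell cycle and replication genes had few calls. Of 40 genes of the anaphase-promoting complex, cyclins and mitotic kinases 7 were higher and 3 lower as deposited (median -0.04), and with the trend removed 0 were higher and 1 lower, which was cki-2, an inhibitor of cyclin-dependent kinases, from 77.8 and 76.7 RPKM to 32.13 and 22.4 RPKM (log2 -1.49, and -2.01 with the trend removed). Of 44 replication genes 4 were higher and 1 lower as deposited and 4 and 0 with the trend removed, and rfc-1, the large subunit of the clamp loader, rose in both fits from 37.9 and 38.3 RPKM to 83.5 and 87.5 RPKM (log2 1.15, and 1.66 with the trend removed). Histone genes had 8 of 63 higher and 1 lower as deposited (median 0.79), and 0 and 6 with the trend removed (median -0.37). Histone transcripts that lack a poly(A) tail escape the capture of polyadenylated RNA. The linker histone hil-4 fell in both fits, from 1729 and 1453 RPKM to 607 and 463 RPKM (log2 -1.58, and -1.80 with the trend removed). vha-11 of the vacuolar ATPase fell from 72.9 and 83.4 RPKM to 25.36 and 37.8 RPKM (log2 -1.304, and -1.62 with the trend removed), alone among 18 genes of this proton pump to be called in both fits.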
